A study of Sus scrofa with 23 samples.

Results

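The prostaglandin system of the kidney cortex was followed through 10 genes of its synthesis, reception, transport and breakdown in newborn pigs. The genes were PTGS1, PTGS2, PTGES, PTGES2, PTGDS, PTGER2, PTGER3, PTGER4, SLCO2A1 and HPGD, chosen by symbol from the 26687 genes of the annotation, and all 10 were found and passed the filter on low counts. RNA-Seq of total RNA depleted of ribosomal RNA was done on 23 newborn pigs, 1 library per pig. By genotype label, 11 libraries were CFTR-/- (called CF), 6 were CFTR+/- (HET) and the other 6 were CFTR+/+ (WT), so that HET and WT give a non-CF group of 12. The CFTR-/- and CFTR+/- pigs carry disrupted alleles of CFTR, the anion channel lost in cystic fibrosis. No treatment is given in the labels, and they give neither sex nor litter. Each library is another pig, and p-values measure the spread between pigs.

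The RNA of CFTR itself (gene 403154) averaged 2.26 CPM in WT (SD 0.794; CPM is the count scaled to library size), 12.6 CPM in HET (SD 2.76) and 19.9 CPM in CF (SD 3.21). More disrupted alleles in the label thus went with more CFTR RNA, and groups are therefore named by label. The libraries held 32901281 to 52952273 estimated counts, at which 3 counts, the limit for a gene read as 0, equal 0.0567 to 0.0912 CPM (counting error only). All 5 proximal tubule markers were present, with a summed level of 6951 to 13780 CPM, and so were all 5 podocyte markers (699 to 1218 CPM). The 6 markers of the medulla were present as well, at 268 to 431 CPM summed. The 6 immune markers summed to 68.3 to 160 CPM, led by the macrophage gene CD163, while the T cell gene CD3E and the B cell gene MS4A1 had at most 15 and 19 counts in any library. Earlier results of these data showed that pigs 1 to 6 and 12 to 18 separate from pigs 7 to 11 and 19 to 23. The labels name no batch, each genotype occurs in both blocks of pig numbers, and values within them are given for PTGS2, SLCO2A1 and further genes. FOS, an immediate early gene, stood at 417 CPM in CF1, 155 CPM in WT12 and 61.8 CPM in HET20, against 2.23 to 6.41 CPM in the other 20 libraries. Values without CF1 and WT12 are given for PTGS2, PTGDS, PTGER3, SLCO2A1 and HPGD.

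Prostaglandins are short-lived lipid signals made from arachidonic acid, which cytosolic phospholipase A2 frees from membranes. The cyclooxygenases encoded by PTGS1 and PTGS2 turn it into prostaglandin H2, and terminal synthases (PTGES, PTGES2, PTGDS) form the E2 and D2 prostaglandins from it. Prostaglandin E2 acts on receptors encoded by PTGER1 to PTGER4, the transporter encoded by SLCO2A1 carries it back into cells, and 15-hydroxyprostaglandin dehydrogenase, encoded by HPGD, inactivates it there. In the kidney this system is known for its part in blood flow, renin release and salt and water transport, and PTGS2 for its expression at the macula densa.

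The breakdown enzyme HPGD and the terminal synthases PTGDS and PTGES had the most RNA of the 10 genes. Compared per length, as TPM (transcript abundance corrected for length and depth) averaged over the 23 libraries, HPGD was highest at 71.9 ± 19.1 TPM (SD, n = 23), followed by PTGDS at 48.8 ± 11.0 TPM and PTGES at 44.6 ± 5.20 TPM. SLCO2A1 (15.01 ± 3.05 TPM), PTGES2 (13.4 ± 2.52 TPM) and PTGER3 (13.1 ± 2.17 TPM) formed a middle group. PTGER4 stood at 5.47 ± 0.84 TPM, and both cyclooxygenases lay well under it, PTGS1 at 1.78 ± 0.875 TPM and PTGS2 at 1.74 ± 1.01 TPM. PTGER2 was lowest at 0.283 ± 0.077 TPM, from 38 to 95 counts per library. Neighbours in this order were not separated by the spread in 4 places. PTGDS exceeded PTGES in 13 of 23 libraries, SLCO2A1 exceeded PTGES2 in 16, PTGES2 exceeded PTGER3 in 12, and PTGS1 exceeded PTGS2 in 11. The other 5 steps of the order held in 22 or 23 of 23 libraries. Within pairs of like function the levels were unequal. The E synthase PTGES exceeded PTGES2 in all 23 libraries, by 2.23 to 4.82 times, and PTGER3 exceeded PTGER4 in all 23, by 1.71 to 3.46 times. The ratio of PTGS2 to PTGS1 TPM had no fixed side, and ran from 0.179 in CF3 to 4.14 in CF1.

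**Figure D1:**
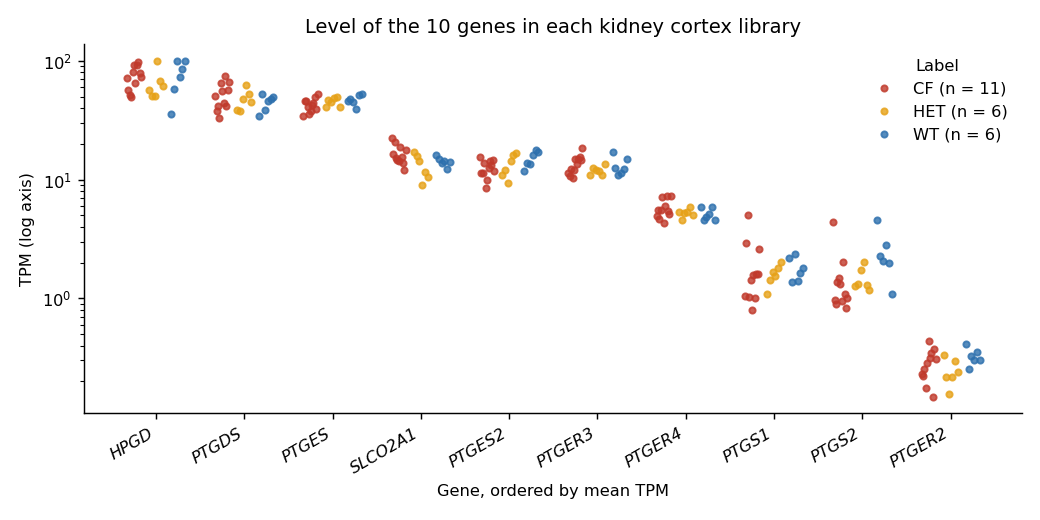
TPM of the 10 genes (log axis) in each of the 23 libraries, 1 point per library, coloured by label, with genes ordered by mean TPM. HPGD is highest (mean 71.9 TPM) and PTGER2 lowest (0.283 TPM), and the 3 labels overlap for every gene.

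Next, it was asked whether the RNA of these genes differed with the genotype label. No gene of the 10 passed an adjusted p of 0.05 in any comparison (quasi-likelihood test of edgeR, Benjamini-Hochberg adjusted over 20921 genes), and no gene separated 2 labels without overlap. For CF against non-CF the adjusted test called 0 of 10 genes, where it called 0.349% of all genes tested. At an unadjusted p under 0.05 it called 1 (SLCO2A1), against 13.7% of all genes, and the groups were free of overlap for 0, against 0.00478% of all genes. For CF against WT the adjusted test called 0 of 10 (background 0.349%), an unadjusted p under 0.05 was found for 2 (PTGDS and PTGER4; background 14.1%), and 0 were free of overlap (background 0.229%). The exact Mann-Whitney test of CF against non-CF, the study's choice of test, gave an unadjusted p under 0.05 for 2 of 10 (PTGS2 and PTGER4), where it did so for 11.5% of all genes. For HET against WT the 3 counts were 0, 0 and 0, with backgrounds of 0.00478%, 7.99% and 0.703%. For CF against HET 0 of 10 genes passed at either limit, with backgrounds of 0% adjusted and 9.89% unadjusted. At the unadjusted limit the counts of 1, 2, 0 and 0 of 10 genes in the 4 comparisons are each within 1 gene of what the shares over all genes give for 10 genes. These comparisons share libraries, and are given side by side for that reason. The median log2 fold change of the 10 genes was 0.16 for CF against non-CF, beside -0.00 over all genes tested, with 6 genes higher and 4 lower. It was 0.14 for CF against WT and -0.01 for HET against WT, with medians of -0.00 over all genes in both.

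**Figure D2:**
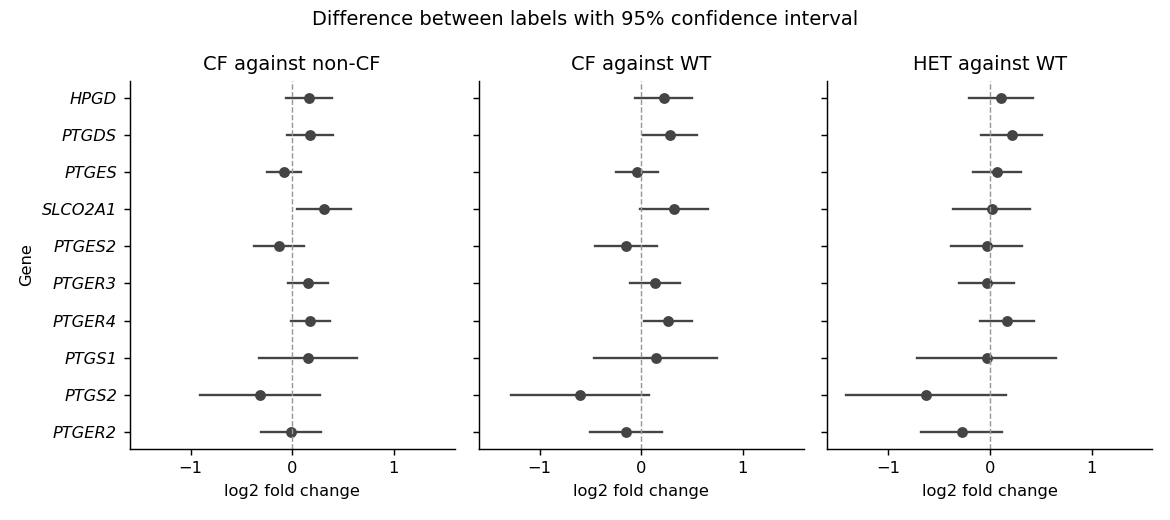
Log2 fold change (points) with its 95% confidence interval (lines) of the 10 genes for CF against non-CF, CF against WT and HET against WT, from edgeR. The interval leaves 0 out for SLCO2A1 in the first panel and for PTGDS and PTGER4 in the second, none of which has an adjusted p under 0.05, and the widest intervals belong to PTGS1 and PTGS2.

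PTGS2, the inducible cyclooxygenase (gene 397590, chromosome 9 from 127850164 to 127858866), had the lowest fold change for CF against non-CF and the widest interval. Its level in CF was 5.17 ± 4.19 CPM (SD, n = 11), with 2.55 at the lowest, a median of 3.80 and 17.4 at the highest. It was 5.06 ± 0.921 CPM (SD, n = 6) for HET (4.38, 4.53 and 6.31) and 7.85 ± 4.05 CPM (SD, n = 6) for WT (3.37, 7.15 and 15.3). The 2 highest libraries were CF1 at 17.4 and WT12 at 15.3 CPM, the same 2 that were highest in FOS and in EGR1 (313 and 199 CPM), and the groups overlapped. HET20, next to them in FOS, had 4.41 CPM of PTGS2. Over all libraries, 10 of 11 labelled CF and 6 of 6 labelled HET lay under the WT median. For CF against non-CF the change was -0.32 on the log2 scale (SE 0.286, adjusted p = 0.689 in edgeR), -0.60 for CF against WT (SE 0.329, adjusted p = 0.425 in edgeR) and -0.63 for HET against WT (SE 0.382, adjusted p = 0.697 in edgeR). For CF against HET it was 0.03 (SE 0.337), an interval from -0.66 to 0.73.

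CF1 and WT12 moved the PTGS2 comparison in opposite directions. Without CF1 and WT12 together, the level was 3.94 ± 1.09 CPM (SD, n = 10) for CF and 6.35 ± 1.91 CPM (SD, n = 5) for WT. The log2 fold change of CF against WT was then -0.68 (SE 0.194, adjusted p = 0.134 in edgeR, unadjusted 0.00191) and that of CF against non-CF -0.51 (SE 0.163, adjusted p = 0.136 in edgeR), while HET against WT shrank to -0.32. For CF against non-CF, leaving out CF1 alone gave -0.71 (edgeR's adjusted p = 0.11) and leaving out WT12 alone gave -0.12 (edgeR's adjusted p = 0.887). Leaving out CF1 alone gave -0.99 for CF against WT (edgeR's adjusted p = 0.0476), the single alternative that brought any of the 10 genes under 0.05, and leaving out WT12 alone gave -0.29 (edgeR's adjusted p = 0.758). In the lower-numbered pigs the log2 fold change of CF against WT was -0.60 (SE 0.426) and in the higher-numbered pigs, with 2 WT libraries, -0.27 (SE 0.296). For HET against WT it turned to 0.11 in the higher-numbered pigs, and CF against HET turned its direction in 8 of 14 alternatives that did not leave out a single library, down to -0.39. PTGS2 averaged 6.99 ± 4.47 CPM (SD, n = 13) in the lower-numbered and 4.34 ± 1.27 CPM (SD, n = 10) in the higher-numbered pigs. Both CF1 and WT12 are among the lower-numbered pigs. In a fit of the labels and the block, edgeR called 0 of the 10 genes between the blocks at the adjusted limit. It called 2073 of all 20921 genes there.

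NOS1, the neuronal nitric oxide synthase, is known as a further gene of the macula densa and was set beside PTGS2. It had 13.1 to 30.2 CPM for the label CF (median 18.3), 20.01 to 29.9 for HET (median 23.5) and 19.9 to 43.7 for WT (median 34.2). Its log2 fold change of CF against WT was -0.70 (SE 0.184, adjusted p = 0.0776 in edgeR), and that of HET against WT -0.46 (edgeR's adjusted p = 0.624). Within the lower-numbered pigs NOS1 had 18.4 ± 4.44 CPM (SD, n = 6) in CF and 38.9 ± 6.59 CPM (SD, n = 4) in WT. Within the higher-numbered pigs CF had 22.6 ± 7.59 CPM (SD, n = 5) and the 2 WT libraries 19.9 and 22.3 CPM. The effect of CF against non-CF on NOS1 differed between the blocks by 0.82 in log2 terms (SE 0.298, adjusted p = 0.323 in edgeR, unadjusted 0.0114). In CF1, the library with the most PTGS2 RNA, NOS1 stood at 19.9 CPM. The 6 markers of the thick ascending limb and macula densa, all present, summed to 983 to 1708 CPM for CF, 1167 to 1649 for HET and 1018 to 1586 for WT. Of the 6, 2 had positive and 4 negative log2 fold changes for CF against WT, with 1 positive (UMOD, 0.52, the uromodulin gene) and 2 negative (NOS1, and SLC12A1, -0.33, the salt cotransporter of the thick limb) at an unadjusted p under 0.05 in edgeR, beside 14.1% of all genes in either direction, and 0 at the adjusted limit. UMOD, SLC12A1 and NOS1 were singled out after their values were seen. Their part in the PTGS2 values was not tested, nor was that of the immediate early genes. In whole tissue, fewer cells of a type and less RNA per cell cannot be told apart.

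**Figure D3:**
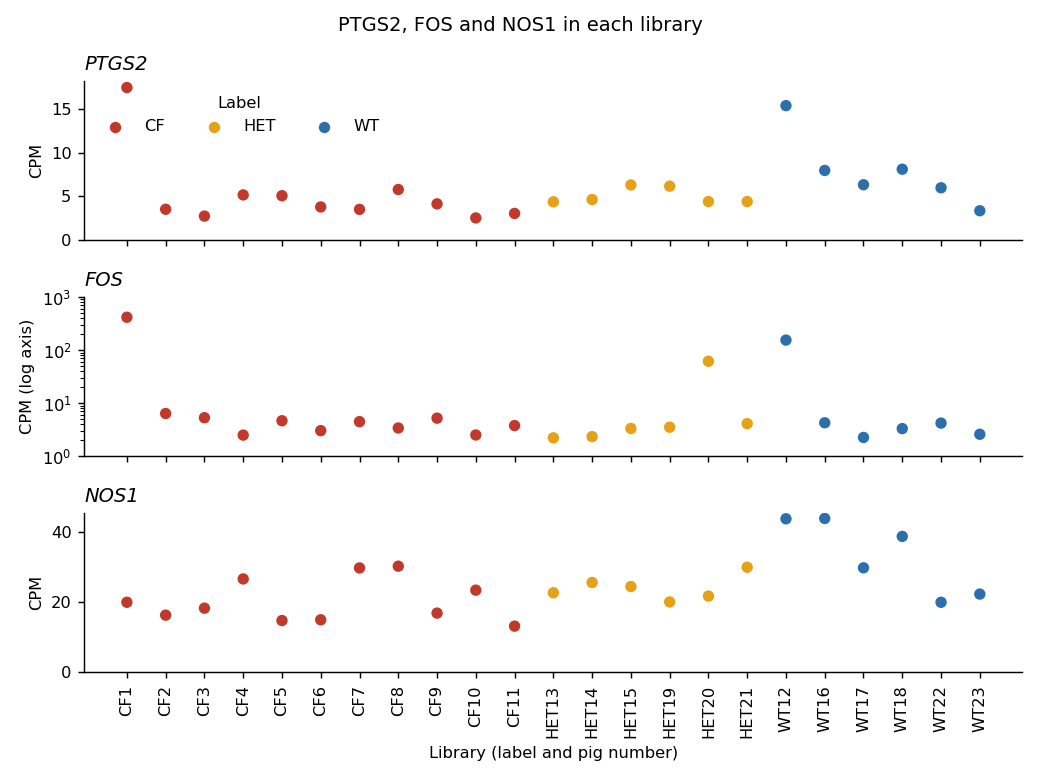
CPM of PTGS2 (top), FOS (middle, log axis) and NOS1 (bottom) in each library, coloured by label. CF1 and WT12 are the 2 highest libraries for PTGS2 (17.4 and 15.3 CPM) and for FOS (417 and 155 CPM), while NOS1 is at 19.9 CPM in CF1.

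PTGS1, the constitutive cyclooxygenase (gene 397541, chromosome 1 from 262456106 to 262482159), varied more among the libraries labelled CF than among the others. It had 4.52 ± 2.75 CPM (SD, n = 11) there, from 1.66 in CF6 over a median of 3.55 to 11.13 in CF3. For HET it had 4.004 ± 0.988 CPM (2.68, 3.98 and 5.50; SD, n = 6) and for WT 4.09 ± 0.966 CPM (2.91, 3.81 and 5.25; SD, n = 6). Both the lowest and the highest of all 23 libraries carried the label CF. After CF3 the next highest library was CF2 at 7.60 CPM. Whether the spread differed between the labels was not tested. On the log2 scale CF differed from non-CF by 0.16 (SE 0.235, adjusted p = 0.835 in edgeR) and from WT by 0.14 (SE 0.293, adjusted p = 0.875 in edgeR), and without CF3 it turned to -0.08 and -0.09.

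The 250 bases before the annotated start of both cyclooxygenase genes are shown because PTGS2 was highest in the 2 libraries with the most FOS and EGR1 RNA, where PTGS1 was within its range in the other libraries. They were read from the genome Sscrofa11.1 for PTGS1 at chr1:262455856-262456105 on the forward strand and for PTGS2 at chr9:127858867-127859116 on the reverse strand. The capitals mark a TGACG on the opposite strand, the core of the cyclic AMP response element, that shares bases with an E-box, CACGTG.
PTGS1: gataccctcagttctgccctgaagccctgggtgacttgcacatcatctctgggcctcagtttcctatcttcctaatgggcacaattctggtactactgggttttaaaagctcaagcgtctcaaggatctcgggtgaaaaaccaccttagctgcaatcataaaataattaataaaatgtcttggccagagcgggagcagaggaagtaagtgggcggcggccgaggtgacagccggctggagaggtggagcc
PTGS2: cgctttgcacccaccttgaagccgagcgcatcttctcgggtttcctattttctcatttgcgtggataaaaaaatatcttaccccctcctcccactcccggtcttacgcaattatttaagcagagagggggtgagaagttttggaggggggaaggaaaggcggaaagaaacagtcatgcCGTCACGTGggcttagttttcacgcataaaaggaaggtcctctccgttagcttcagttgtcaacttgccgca
These letters begin 72 and 69 bases before the PTGS2 start. Searched on both strands, TGACG occurs in 19.2% and CACGTG in 6.16% of 20667 gene starts of the same length. Neither is in the PTGS1 window. The TATA box TATAAA (10.4% of all windows), the CCAAT box (31.96%) and the NF-kappaB motif (6.47%) were found in neither window. A match or its absence describes these letters only.

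The E synthases PTGES and PTGES2 lay close together across labels. PTGES, the microsomal prostaglandin E synthase (gene 654407), had 42.7 ± 7.12 CPM (SD, n = 11) for CF (32.3, 42.1 and 56.1), 46.2 ± 3.14 CPM (SD, n = 6) for HET (41.8, 46.8 and 50.02) and 44.0 ± 5.92 CPM (SD, n = 6) for WT (33.5, 46.1 and 49.2). Its log2 fold change of CF against non-CF was -0.08, with an interval from -0.25 to 0.09. PTGES2, a further E synthase (gene 100155133), had 24.96 ± 5.99 CPM for CF (16.8, 24.2 and 36.2), 27.0 ± 6.44 for HET (19.9, 25.3 and 36.8) and 27.6 ± 3.39 for WT (23.02, 27.9 and 31.6). The log2 fold change of CF against non-CF was -0.13 (SE 0.120, adjusted p = 0.692 in edgeR), and it was -0.28 in the higher-numbered pigs (SE 0.113) and -0.00 in the lower-numbered pigs (SE 0.159). PTGES varied by 12% of its mean TPM over the libraries, the least of the 10 genes, and its libraries labelled CF reached both beyond the highest and below the lowest non-CF library.

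PTGDS, which makes prostaglandin D2 (gene 397456, on an unplaced scaffold), was the synthase with the larger values in CF. It had 28.5 ± 5.68 CPM (SD, n = 11) for CF, with 20.8 at the lowest, a median of 27.1 and 36.9 at the highest. For HET it had 27.0 ± 4.13 CPM (21.9, 28.4 and 31.8; SD, n = 6) and for WT 23.3 ± 4.29 CPM (19.1, 22.7 and 30.6; SD, n = 6). In 4 of 11 libraries labelled CF it exceeded every WT library, and 8 of 11 exceeded the WT median. In log2 terms PTGDS was higher by 0.29 in CF than in WT (SE 0.130, adjusted p = 0.315 in edgeR, unadjusted 0.0376), by 0.21 in HET than in WT (edgeR's adjusted p = 0.738) and by 0.18 in CF than in non-CF (SE 0.108, adjusted p = 0.503 in edgeR). Exact two-sided permutation of the CF and WT labels over mean log2 CPM gave p = 0.068. Without CF1 and WT12 the log2 fold change of CF against WT was 0.21 (unadjusted p = 0.135 in edgeR).

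Among the E2 receptors, PTGER4, which raises cyclic AMP (gene 100625072, chromosome 16 from 25670832 to 25686556), showed the same order of labels. It had 24.7 ± 4.55 CPM (SD, n = 11) for CF, with 15.98 at the lowest, a median of 26.4 and 30.7 at the highest. It had 23.1 ± 2.04 CPM (20.5, 23.8 and 25.6; SD, n = 6) for HET and 20.6 ± 2.68 CPM (17.9, 19.7 and 24.7; SD, n = 6) for WT. In 8 of 11 libraries labelled CF it exceeded every WT library, but CF6 had the lowest value of all 23, and the labels overlapped. All 6 HET libraries exceeded the WT median. The log2 differences of PTGER4 were 0.26 for CF against WT (SE 0.114, adjusted p = 0.288 in edgeR, unadjusted 0.0294), 0.17 for HET against WT (edgeR's adjusted p = 0.763) and 0.18 for CF against non-CF (SE 0.094, adjusted p = 0.414 in edgeR). The exact permutation p for CF against WT was 0.0848, two-sided. In the lower-numbered pigs this log2 fold change was 0.20 (SE 0.163) and in the higher-numbered pigs 0.36 (SE 0.151).

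PTGER2, the other E2 receptor that raises cyclic AMP (gene 100127164), had the lowest RNA of the 10 genes, at 1.57 ± 0.36 CPM (SD, n = 11) for CF, 1.43 ± 0.375 CPM (SD, n = 6) for HET, and WT had 1.74 ± 0.319 CPM (SD, n = 6). Its values ran from 0.951 in HET15 to 2.34 in WT12. The log2 fold change was -0.01 for CF against non-CF, with an interval from -0.31 to 0.28, -0.15 for CF against WT and -0.28 for HET against WT (SE 0.195, adjusted p = 0.74 in edgeR). Without WT12, the highest library, these last values were -0.04 and -0.17.

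PTGER3, the E2 receptor known for lowering cyclic AMP (gene 396811, chromosome 6 from 141958955 to 142160437), was the most abundant receptor of the 3. It had 29.7 ± 4.51 CPM (SD, n = 11) for CF (24.7, 29.1 and 38.4), 26.4 ± 3.41 CPM (SD, n = 6) for HET (23.9, 25.4 and 32.8) and 27.0 ± 6.42 CPM (SD, n = 6) for WT (20.7, 25.3 and 38.2). In 9 of 11 libraries labelled CF it exceeded the median of either other label. CF against non-CF gave a log2 fold change of 0.15 (SE 0.095, adjusted p = 0.504 in edgeR), CF against WT gave 0.14 (SE 0.118, adjusted p = 0.653 in edgeR) and CF against HET gave 0.17 (SE 0.118, adjusted p = 0.66 in edgeR). WT12 had the highest WT value, and CF against WT gave 0.27 without it (edgeR's adjusted p = 0.294), 0.26 without CF1 and WT12 together, and 0.07 without WT18, the lowest WT library. It was 0.29 in the higher-numbered pigs and 0.04 in the lower-numbered ones for CF against non-CF, a difference of 0.24 (SE 0.181, adjusted p = 0.685 in edgeR).

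The PTGER3 gene is known for transcripts that share the receptor body and differ in the intracellular tail. The annotation has 6, and the reads of each library were divided among them by the authors' estimates. Their coding sequences after the last base shared by all 6 are shown because the libraries differed in one of them. They were read from the genome Sscrofa11.1 on the forward strand of chromosome 6, with the stop codon in capitals.
NM_213834.1: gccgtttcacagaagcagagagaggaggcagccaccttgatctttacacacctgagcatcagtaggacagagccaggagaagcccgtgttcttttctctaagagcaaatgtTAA
XM_005656131.3: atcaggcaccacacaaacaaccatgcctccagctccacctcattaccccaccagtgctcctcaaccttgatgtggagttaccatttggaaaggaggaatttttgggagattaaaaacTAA
XM_005656132.3: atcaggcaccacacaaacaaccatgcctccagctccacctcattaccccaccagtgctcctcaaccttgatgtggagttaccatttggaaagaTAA
XM_013988866.2: gaggaatttttgggagatTAA
XM_021093485.1: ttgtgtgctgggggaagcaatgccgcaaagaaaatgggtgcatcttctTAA
XM_021093486.1: tcccttaagaattatcacTGA
The tails run from 6 to 39 codons before the stop. XM_005656131.3 and XM_005656132.3 share their first tail exon and end differently. XM_005656132.3 took 40.3 ± 3.15% of the PTGER3 estimated counts (SD, n = 23), NM_213834.1 took 29.4 ± 2.96% and XM_021093486.1 took 15.5 ± 3.72%. XM_005656131.3 had 9.002 ± 2.34%, and the remaining 2 had means of 2.62% and 3.16%. The depth behind the shares is 839 to 1794 counts of PTGER3 per library, and since the estimates divide reads that fit several transcripts, a binomial interval is not given.

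The share of XM_021093486.1, whose 6-codon tail is encoded at chr6:142005273-142005293, was lower for the label CF than for WT. It was 13.1 ± 1.71% (SD, n = 11) for CF, with 9.58% at the lowest, a median of 12.7% and 15.1% at the highest. For HET it was 17.2 ± 4.16% (11.3%, 18.9% and 20.6%; SD, n = 6) and for WT 18.3 ± 3.46% (14.1%, 17.8% and 22.7%; SD, n = 6). WT17 at 14.1% was the single WT library under 15.1%, and the HET libraries lay within and above the CF range. The difference of CF from WT was -5.20 percentage points (exact permutation p = 0.00129, two-sided, or 0.0271 after Benjamini-Hochberg adjustment over 21 tests of 7 transcripts in 3 comparisons). For CF against HET it was -4.13 percentage points (exact permutation p = 0.017, adjusted 0.17) and for HET against WT -1.07 percentage points (exact permutation p = 0.621). The share was tested after its values had been seen, and the call rests on single WT libraries. With 1 library left out and all 21 tests repeated, the adjusted p stayed under 0.05 in 13 of 17 cases and was 0.0769 without WT16, WT18, WT22 or WT23. Without CF1 and WT12 it was 0.0699 at a difference of -5.66 percentage points. In the lower-numbered pigs the difference of CF from WT was -6.03 percentage points (exact permutation p = 0.0286, adjusted 0.2) and in the higher-numbered pigs -4.03 percentage points (exact permutation p = 0.0952, the smallest that 5 CF against 2 WT libraries allow). Only 111 bases of the genome belong to this transcript and to no other of PTGER3, and the estimates rest on them and on its splice junction. As TPM the transcript stood at 2.74 ± 0.705 (SD, n = 11) for CF and 3.61 ± 0.622 (SD, n = 6) for WT.

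SLCO2A1, the prostaglandin transporter (gene 100144510, chromosome 13 from 75108540 to 75189660), had the smallest p of the 10 genes for CF against non-CF. Its RNA was 28.9 ± 7.57 CPM (SD, n = 11) for CF, with 19.1 in CF10 at the lowest, a median of 27.7 and 46.1 in CF1 at the highest. It was 23.4 ± 6.02 CPM (SD, n = 6) for HET (14.3, 23.6 and 30.1) and 23.1 ± 3.25 CPM (SD, n = 6) for WT (19.2, 22.1 and 27.4). In 9 of 11 libraries labelled CF it exceeded the non-CF median, in 4 it exceeded every non-CF library, and the groups overlapped from 19.1 to 30.1 CPM. For CF against non-CF this is a log2 fold change of 0.31 (SE 0.129, interval 0.05 to 0.58, adjusted p = 0.263 in edgeR, unadjusted 0.0223). A permutation test of the mean log2 CPM gave p = 0.0418, two-sided, and the exact Mann-Whitney test p = 0.0512. Against WT it was 0.32 (SE 0.162, adjusted p = 0.375 in edgeR), against HET 0.31 (SE 0.162, adjusted p = 0.546 in edgeR), and HET differed from WT by 0.02 (SE 0.183).

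The level of SLCO2A1 followed the pig numbers as much as the label. It was 28.3 ± 6.46 CPM (SD, n = 13) in the lower-numbered and 22.9 ± 6.04 CPM (SD, n = 10) in the higher-numbered pigs, and the 3 highest HET libraries were the 3 of the lower numbers. Within the lower-numbered pigs CF stood at 30.9 ± 8.46 CPM (SD, n = 6) and non-CF at 26.0 ± 3.35 CPM (SD, n = 7), a log2 fold change of 0.25 (SE 0.143). Within the higher-numbered pigs CF stood at 26.5 ± 6.39 CPM (SD, n = 5) and non-CF at 19.3 ± 3.05 CPM (SD, n = 5), a log2 fold change of 0.46 (SE 0.161). With the pig-number block as a term the log2 fold change was 0.34 (SE 0.114, adjusted p = 0.146 in edgeR), and without CF1 and WT12 it was 0.25 (edgeR's adjusted p = 0.322). The difference between the blocks was 0.21 (SE 0.231, adjusted p = 0.815 in edgeR), and it was 0.07 without CF7 and 0.35 without CF1.

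The 3 genes whose log2 CPM was most like that of SLCO2A1 over the 23 libraries were CSPG4 (Pearson's r = 0.90), a proteoglycan known from pericytes, LAMC3 (r = 0.89), a laminin chain, and HEG1 (r = 0.89), known from endothelium. The libraries share their depth, scaling and tissue composition, and these r are a description. The 8 interstitial, pericyte and smooth muscle markers, all present, summed to 2336 to 4883 CPM for CF, 2230 to 3506 for HET and 2321 to 5026 for WT. The 6 endothelial markers, all present, summed to 454 to 676, 559 to 652 and 503 to 668 CPM. Their part in the SLCO2A1 values was not tested.

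**Figure D4:**
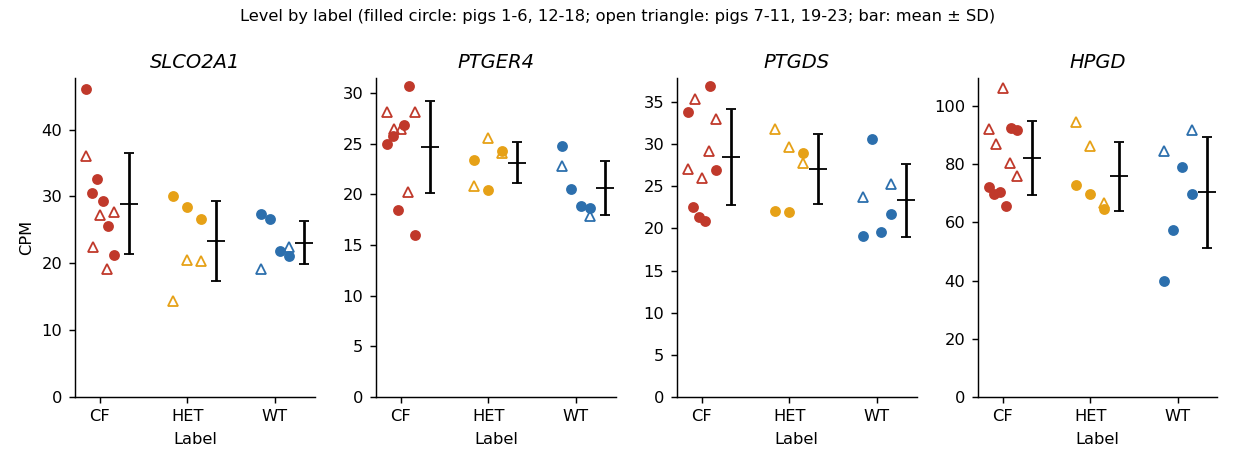
CPM of SLCO2A1, PTGER4, PTGDS and HPGD by label, 1 point per library, with the mean ± SD beside each label. Filled circles are pigs 1 to 6 and 12 to 18, and open triangles pigs 7 to 11 and 19 to 23. The labels overlap in each panel, and for SLCO2A1 the means are 28.9 (CF), 23.4 (HET) and 23.1 CPM (WT).

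HPGD inactivates prostaglandin E2, and its gene (100156186) spans chromosome 14 from 15718261 to 15773534. Its level was 82.2 ± 12.7 CPM (SD, n = 11) for CF (65.7, 80.4 and 106), 75.9 ± 11.9 CPM (SD, n = 6) for HET (64.6, 71.4 and 94.5) and 70.4 ± 19.2 CPM (SD, n = 6) for WT (39.9, 74.4 and 91.7). WT12 was the lowest library at 39.9 CPM and CF9 the highest at 106. In log2 terms HPGD differed by 0.17 for CF against non-CF (SE 0.111, adjusted p = 0.536 in edgeR) and by 0.22 for CF against WT (SE 0.137, adjusted p = 0.487 in edgeR). These values rest in part on WT12. Without it HPGD differed by 0.11 for CF against WT, and without CF1 and WT12 by 0.13. The difference for CF against WT was 0.33 in the lower-numbered and 0.02 in the higher-numbered pigs, and on the TPM scale the mean of CF, 73.8 ± 16.7 TPM (SD, n = 11), was below that of WT, 75.5 ± 25.1 TPM (SD, n = 6). HPGD stood at 70.5 ± 13.5 CPM (SD, n = 13) in the lower-numbered and 86.6 ± 10.8 CPM (SD, n = 10) in the higher-numbered pigs. Its nearest genes were UBE2Q2 (r = 0.88), SAR1B (r = 0.87) and HAO1 (r = 0.85).

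The total of HPGD hid a wide spread among its transcripts. The annotation has 7. NM_001190248.1, with 801 coding bases, and XM_021071974.1, with 546, differ in exon 3, in the length of the last exon and in where the first exon starts. Exon 3 is shown with the pair of intron bases on either side, the splice sites, in capitals, since XM_021071974.1 leaves it out. It lies at chr14:15722820-15722926 of Sscrofa11.1 on the forward strand and has 107 bases, which is no multiple of 3.
HPGD exon 3: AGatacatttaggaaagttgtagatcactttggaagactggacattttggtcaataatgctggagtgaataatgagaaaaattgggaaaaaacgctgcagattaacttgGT
XM_021071974.1 also carries 562 further bases at the end of its last exon that no other HPGD transcript has. Its share of the HPGD estimated counts fell into 3 ranges. In 6 libraries (CF10, WT16, WT12, WT17, WT23 and CF1) it was 9.42% to 10.5%, in 13 libraries 20.6% to 33.9%, and in 4 (HET14, CF3, CF7 and HET20) 44.9% to 48.7%. The gaps between these ranges were 10.1 and 11.0 percentage points, and the next largest gap between neighbouring libraries was 2.93. Both blocks of pig numbers occur in each range. The share of NM_001190248.1 ran the other way, from 65.6% in CF1 to 7.49% in CF3. NM_001190248.1 has 0 bases of its own, so its share rests on splice junctions and on how the estimates divided shared reads. Reads of the 562 further bases fit XM_021071974.1 alone, so its share does not measure the leaving out of exon 3 by itself. XM_021071978.1, a transcript with 5 exons and 4916 bases of its own, kept 34.0 ± 5.57% (SD, n = 23).

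By label, the share of XM_021071974.1 was 28.6 ± 12.2% (SD, n = 11) for CF, 33.2 ± 11.08% (SD, n = 6) for HET, against 16.6 ± 10.1% (SD, n = 6) for WT. The lowest range held 2 of 11 CF, 0 of 6 HET and 4 of 6 WT libraries. The difference was 12.003 percentage points for CF against WT (exact permutation p = 0.0616, adjusted 0.259 over 21 tests) and 16.6 percentage points for HET against WT (exact permutation p = 0.0281, adjusted 0.17). Neither passed the adjusted limit. TPM corrects each transcript for its own length, so the summed TPM of HPGD depends on this division of reads. NM_001190248.1 (802 bases) stood at 44.6 ± 20.6 TPM (SD, n = 11) for CF and 57.5 ± 22.9 TPM (SD, n = 6) for WT. XM_021071974.1 (1275 bases) stood at 21.8 ± 9.97 TPM for CF and 12.3 ± 9.28 TPM for WT. In the lower-numbered pigs the difference of CF from WT was 15.7 percentage points (exact permutation p = 0.019, adjusted 0.2) and in the higher-numbered pigs 5.97 (exact permutation p = 0.857). HPGD CPM was 39.9 to 91.7 in the 6 libraries of the lowest range and 69.8 to 92.3 in the 4 of the highest, so the total level overlapped between them.

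**Figure D5:**
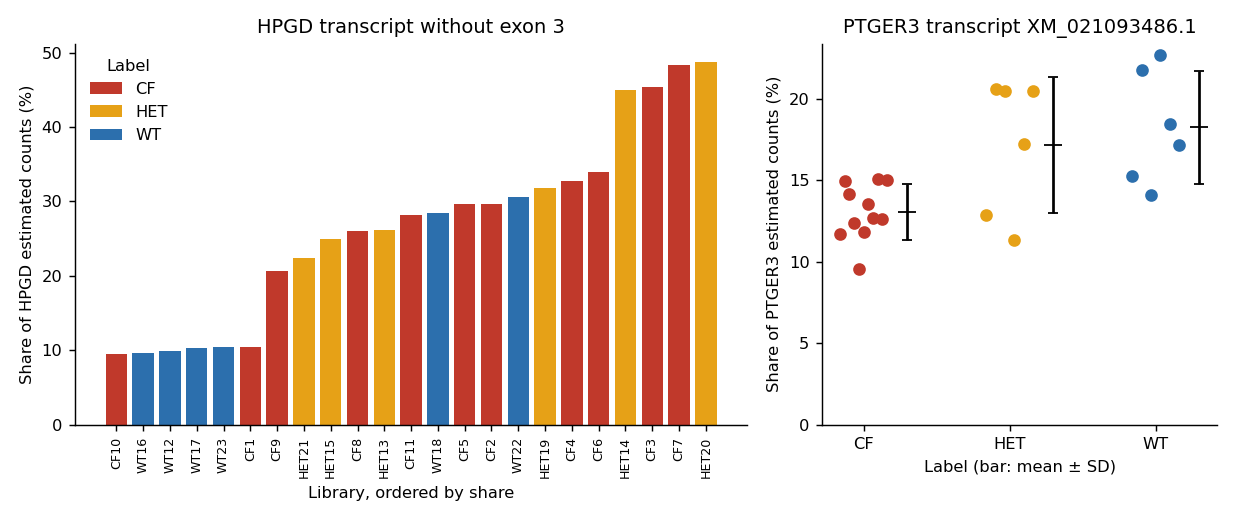
Left, share of the HPGD estimated counts (%) assigned to XM_021071974.1, 1 bar per library in rising order, coloured by label. This transcript leaves out exon 3 and has a longer last exon than NM_001190248.1. Right, share of the PTGER3 estimated counts (%) assigned to XM_021093486.1 by label, with mean ± SD. The left bars form 3 steps (9.42% to 10.5%, 20.6% to 33.9% and 44.9% to 48.7%), and the right means are 13.1% (CF), 17.2% (HET) and 18.3% (WT).

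The effect of the label was not found to differ between the pig-number blocks for any of the 10 genes. In edgeR's test of the difference 0 of 10 genes passed the adjusted limit (background 0.0191%) and 0 of 10 an unadjusted p under 0.05 (background 10.1%). The differences in log2 fold change ran from -0.42 for PTGS1 (SE 0.482) to 0.24 for PTGER3 (SE 0.181). Without CF3 the value of PTGS1 was -0.0063, and without WT12 that of PTGER3 was 0.14. Pairs of the 10 genes were then compared over the libraries. Of the 45 pairs, 0 had an adjusted p under 0.05 over 23 libraries (permutation test with 100000 resamples, Benjamini-Hochberg adjusted), and 4 had an unadjusted p under 0.05. The share over all gene pairs was not computed, and nothing is read from these counts. The pair farthest from 0 was PTGS2 with HPGD (Pearson's r = -0.51, permutation p = 0.0158, adjusted 0.362; Spearman's rho = -0.38, permutation p = 0.0745, adjusted 0.632). Without CF1 and WT12, the libraries farthest from the PTGS2 median, r was -0.26, and it was -0.53 in the lower-numbered and 0.19 in the higher-numbered pigs. PTGS1 with PTGES had r = 0.49 (permutation p = 0.0161, adjusted 0.362) and rho = 0.51 (permutation p = 0.0137, adjusted 0.616), with r = 0.47 and 0.62 within the blocks.

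Other genes gave each member a different company. The nearest genes of PTGS2 were SPRY4 (r = 0.86), LOC102159614 (r = 0.82) and CCND2 (r = 0.81). Without CF1 and WT12, the r of SPRY4 was 0.62 and that of CCND2 0.69, and in the higher-numbered pigs they were 0.43 and 0.22, against 0.91 and 0.92 in the lower-numbered pigs. Those of PTGES2 were NCLN and MBD3 (r = 0.89 each) and LOC100525876 (r = 0.88), and those of PTGES were TSTD1 (r = 0.79), NOL12 (r = 0.77) and BPHL (r = 0.76). PTGER3 was nearest to RAP1GAP2 (r = 0.74), PDE4B (r = 0.73), a phosphodiesterase that breaks down cyclic AMP, and SIPA1L2 (r = 0.73). PTGER4 was nearest to NEK11 (r = 0.76), CDH22 (r = 0.73) and BATF (r = 0.68), and PTGDS to SLC27A2, PLPP4 (r = 0.71 each) and JMJD4 (r = 0.70). The r of SLC27A2 was 0.81 in the lower-numbered and 0.11 in the higher-numbered pigs. PTGS1 was nearest to LOC100523909 (r = 0.78), LOC100524016 and SFTA2 (r = 0.77 each), and PTGER2 to LOC110256297 (r = 0.76), LOC110256147 (r = 0.74) and LOC110260701 (r = 0.69). These r are the highest among 20921 genes and are given as a description.

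The rest of the pathway was described from a list of 25 further prostanoid genes, of which 24 were in the table and 21 passed the filter. For CF against non-CF 0 of 21 passed the adjusted limit, beside 0.349% of all genes, and 3 passed at an unadjusted p under 0.05, all lower in CF, where 13.7% of all genes passed in either direction, a share close to that of the list. PLA2G4A, the cytosolic phospholipase A2 that frees arachidonic acid, had 24.7 ± 1.61 CPM (SD, n = 11) for CF (22.8, 23.9 and 27.4), 26.0 ± 3.33 CPM (SD, n = 6) for HET (20.2, 26.8 and 29.0) and 30.1 ± 3.602 CPM (SD, n = 6) for WT (25.6, 30.04 and 34.5). CF and WT overlapped from 25.6 to 27.4 CPM. Its log2 fold change was -0.28 for CF against WT (SE 0.0773, adjusted p = 0.0862 in edgeR) and -0.18 for CF against non-CF (SE 0.0701, adjusted p = 0.233 in edgeR). The order of the labels held in neither pig-number block. The lower-numbered pigs had means of 25.4 CPM for CF (n = 6), 23.6 for HET (n = 3) and 32.1 for WT (n = 4). The higher-numbered pigs had means of 23.9 CPM for CF (n = 5) and 28.3 for HET (n = 3), with WT libraries at 25.6 and 26.7. PTGR2 and CBR1, which reduce prostaglandins at other positions, had log2 fold changes of -0.27 (SE 0.111, adjusted p = 0.259 in edgeR) and -0.28 (SE 0.123, adjusted p = 0.311 in edgeR). PTGIR, the prostacyclin receptor, and PLA2G4B had 0.11 and 0.09. The median of the list was 0.00 for CF against non-CF, beside -0.00 over all genes. By level, PTGR1 (182 ± 64.4 TPM, SD, n = 23) and PTGR2 (96.7 ± 24.4 TPM), both prostaglandin reductases, exceeded the mean of HPGD, and PTGES3, the cytosolic E synthase, was at 49.4 ± 9.07 TPM, near PTGDS and PTGES. PTGER1, the remaining E2 receptor, had 1.19 ± 0.307 TPM (SD, n = 23), between PTGS2 and PTGER2. HPGDS, PLA2G2A and PLA2G5 were removed by the filter, and their highest counts in a library were 18, 5 and 15. Of 11 genes of the lipoxygenase, leukotriene and epoxide branches, 0 passed the adjusted limit (0.349% of all genes) and 0 an unadjusted p under 0.05 (13.7% of all genes) for CF against non-CF. The smallest p belonged to LTA4H (log2 fold change 0.17), ALOX15 (-0.12), EPHX1 (0.17), EPHX2 (0.11) and CYSLTR2 (-0.08), with edgeR's adjusted p between 0.585 and 0.756.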

How the data were processed

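The authors sequenced stranded total RNA, depleted of ribosomal RNA, from the kidney cortex of 23 newborn pigs. The deposited estimated counts and TPM per transcript were made by the authors with kallisto on RefSeq transcripts of Sscrofa11.1, 1 file per pig. The 77689 transcripts were summed per symbol with the deposited map (26687 symbols), and the sums rounded to whole counts (63.0% of the deposited values were not whole). Totals of 32901281 to 52952273 counts per library set the precision, in terms of counting error alone.

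Genes were tested with the quasi-likelihood test of edgeR 4.0.16 (R 4.3.3, TMM scaling, filterByExpr, 20921 genes, Benjamini-Hochberg adjustment, limit 0.05). CF against non-CF came from a fit with HET and WT pooled. The comparisons between single labels came from a fit of all 3 labels. CPM are scaled by TMM, and log2 CPM use a prior count of 2. Further fits tested whether the CF effect differed between the pig-number blocks, and compared the blocks with the 3 labels as terms. Transcript shares, for transcripts with a mean share of at least 5%, were compared by exact permutation (scipy 1.17.1). This choice, the leaving out of CF1 and WT12 together and the leaving out of CF1, WT12 and HET20 together were made after values were seen. Correlations used 100000 permutations. Alternatives were DESeq2 1.42.0, limma 3.58.1 (voom, and log2 of TPM + 0.1), other scalings and filters (at least 1 CPM in 6 libraries, or none), a block term, each block alone, the Y-linked gene EIF1AY as a covariate, each library left out and the study's Mann-Whitney test. All edgeR calculations were tested on simulated data. The members, gene lists and pig-number blocks were chosen with earlier results of these data known. All 10 members were named, and beside them the 5 genes of each further list with the smallest p for CF against non-CF and the 3 genes most correlated with each member. NOS1, UMOD, SLC12A1, FOS, EGR1, PTGR1, PTGES3, PTGER1 and the genes at low counts were named after their values were seen. Sequences are from RefSeq's Sscrofa11.1 genome and annotation, and protein sequences were not used here.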

Additional observations from a re-analysis of the deposited data

Results flagged for a closer look

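The PTGER3 level of the library HET21, 32.8 CPM, stood apart from the other 5 HET libraries, which had 23.9 to 26.8 CPM, by Dixon's criterion at the 95% level. It was the single such value among the 20 groups examined, the 10 genes in HET and in WT, and chance marks about 1 in 20 groups. The 11 CF libraries are too many for the criterion as used here and were not examined. Among them PTGS2 stood at 17.4 CPM in CF1, where the next library had 5.79 CPM.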

How the results depend on the processing

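No gene of the 10 passed an adjusted p of 0.05 in any of the other scalings, filters, tests or block fits, and leaving out a library gave 0 to 1 genes called for CF against WT, the 1 being PTGS2 without CF1. The log2 fold change turned its direction as follows. For PTGS1, CF against non-CF gave -0.0186 with limma-voom, -0.0763 in the higher-numbered pigs, -0.0290 with limma on log2 TPM, -0.0846 in the Mann-Whitney test and -0.0110 in the permutation test, and -0.0774 to 0.25 when a library was left out. For the same gene, CF against WT gave -0.0363 with limma-voom, -0.11 with log2 TPM, -0.0278 in the permutation test and -0.0898 to 0.23 without a library. PTGER2 in CF against non-CF gave 0.0758 in the higher-numbered pigs, 0.0511 without CF1 and WT12, 0.0702 without HET20 as well, 0.0330 in the Mann-Whitney test and -0.0705 to 0.0507 without a library. For HET against WT, PTGS2 was 0.11 in the higher-numbered pigs, and SLCO2A1 was -0.0152 with limma-voom, -0.00866 with upper-quartile scaling, -0.0344 with EIF1AY, -0.17 in the higher-numbered pigs, -0.15 with log2 TPM, -0.0161 in the permutation test and -0.0690 to 0.12 without a library. For CF against HET, PTGS2 was -0.17 with limma-voom, -0.00288 with upper-quartile scaling, -0.0578 with a block term, -0.38 in the higher-numbered pigs, -0.13 with log2 TPM, -0.36 without CF1 and WT12, -0.39 without HET20 as well, -0.19 in the permutation test and -0.35 to 0.10 without a library. The cause of these turns was not tested. The lower share of the PTGER3 transcript XM_021093486.1 in CF than in WT ran from -6.03 to -4.31 percentage points without a library, and its adjusted p rose to 0.0769 without WT16, WT18, WT22 or WT23 and to 0.0699 without CF1 and WT12. The exact Mann-Whitney test of CF against non-CF gave an unadjusted p of 0.0317 for PTGS2, 0.0439 for PTGER4 and 0.0512 for SLCO2A1 (adjusted 0.344, 0.382 and 0.404). No paired analysis was possible because the labels give no litter and no pig number occurs in 2 groups. PTGER2 at 38 to 95 counts is the gene most limited by depth.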
